A study of Mus musculus with 7 samples.

Results

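The clustered protocadherin genes are 24 of the 22359 protein-coding genes that GENCODE release M1 places on the mm9 mouse sequence. They were taken by symbol, as the genes of chromosome 18 whose name begins with Pcdha, Pcdhb or Pcdhg. Release M1 folds most alpha genes into one entry, Pcdha11 (ENSMUSG00000007440.7), beside Pcdha3, and all gamma genes into Pcdhgc5 (ENSMUSG00000023036.7), whereas the 21 beta genes stand alone. The members described here are therefore the distinct first exons of these genes that hold at least 1000 coding bases, 40 in all, of which 9 were gamma, 21 beta and 10 alpha. Alpha and gamma exons bear transcript names, such as Pcdha11-204, because release M1 does not pair them with the names of single genes. RefSeq lists 21 gamma, 22 beta and 14 alpha symbols, so most gamma exons and some alpha exons were not analysed here, and the gamma and alpha families below mean the 9 and 10 exons measured. The alpha cluster spanned chr18:37089939-37347311, the beta cluster chr18:37424652-37681073 and the gamma cluster chr18:37833989-38001527.

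Clustered protocadherins are cell adhesion proteins of the cadherin superfamily, and each neuron makes its own combination of them, which marks the cell to its neighbors. Each variable exon has a promoter of its own and encodes the whole extracellular part of one isoform; in the alpha and gamma clusters it is spliced to shared constant exons, while the beta genes have no constant exons. Promoter choice is tied to DNA methylation and to CTCF, a factor that binds the promoters of many variable exons and, in the alpha cluster, also sites within the exons.

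5-Formylcytosine (5fC) is made when TET enzymes oxidize methylated cytosine, and TDG, a DNA glycosylase, removes it. It was tagged with biotin, pulled down and sequenced in J1 cells, an established mouse ES cell line of the 129S4/SvJae background, in 2 biological replicates of each of 3 conditions. In the TDG KD the cells received a pool of siRNAs against Tdg in 3 rounds of transfection without feeder cells, and the siRNA control received a non-targeting siRNA in the same way. WT cells were not transfected and grew on irradiated embryonic fibroblasts, so that transfection and feeders differ together between siRNA control and WT. All 6 pulldowns share 1 input library.

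Each library divides the genome into domains that are enriched, background or unconfident, and each domain carries a value, the pulldown reads less the input reads in an average 100 bp bin. A member was measured over its first exon and 500 bp on either side, and was called enriched where at least 50% of that window lay in enriched domains. Its level is given as excess, which is the value of the domains minus the mean of the library, in reads per bin per M (mega) uniquely placed reads. The libraries differed in resolution. WT 1 held 389620 enriched domains and the other 5 libraries between 4901 and 40121, and TDG KD 1 left 504.9 Mb unconfident. In TDG KD 1 and in siRNA control 2, 14 of the 21 beta windows lay inside the same domain and shared its value, as did 7 and 8 of the 10 alpha windows, and the members are then not separate measurements. Chromosome 18 as a whole was below the mean of its library in all 6 libraries, by an excess between -0.00213 and -0.00117.

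By median excess over the whole window, the gamma exons carried more 5fC than the beta exons in every library. First exons of the members were 2319 to 7131 bp long with 2316 to 2613 coding bases, so windows differed in noncoding sequence. The part of this in the difference was not tested. Between 1500 and 2000 bp after the start codon, the WT 1 median was higher for beta (0.0737) than for gamma (0.0634). In the other libraries gamma was above beta there. The gamma exons made up 6 of 10 and 6 of 9 enriched members in the siRNA controls and 8 of 16 and 7 of 14 in WT. In the TDG KD they made up 0 of 1 and 7 of 19. The share of enriched members over the 3 families together was below the share of all gene windows in each library. Against the other genes of chromosome 18 it was mixed. It was higher in TDG KD 2 (47.5% beside 43.9%), siRNA control 2 (22.5% beside 20.7%) and WT 2 (35% beside 32.9%). It was lower in TDG KD 1 (2.5% beside 5.69%), siRNA control 1 (25% beside 29.5%) and WT 1 (40% beside 58.3%). In TDG KD 1, 0 of 9 gamma, 0 of 21 beta and 1 of 10 alpha windows were enriched, where 15.4% of all gene windows were. A further 6 gamma, 4 beta and 2 alpha windows were unconfident in that library, as were 7275 of the 22035 other gene windows. In TDG KD 2 the counts of enriched windows were 7, 8 and 4 (53.5% of all windows). In siRNA control 1 they were 6, 1 and 3 (44.2%), and in siRNA control 2 they were 6, 2 and 1 (40.4%). WT 1 had 8, 5 and 3 enriched windows (58.8%), and WT 2 had 7, 4 and 3 (47.1%). The gamma share was above the share of all windows in 5 of the 6 libraries, TDG KD 1 being the exception, and the beta and alpha shares were below it in all 6.

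Median excess of the gamma windows was 0.00152 and 0.0195 in the TDG KD libraries, 0.0130 and 0.00690 in the siRNA controls, and 0.0449 and 0.0140 in WT. The beta medians were -0.00115 and 0.00607 in the TDG KD, -0.00338 and -0.00175 in the siRNA controls, and 0.0147 and -0.00342 in WT. Gamma was above beta in every library, and the difference averaged 0.0148 ± 0.00933 (SD, n = 6 libraries; exact two-sided sign-flip permutation test, p = 0.03125, the smallest that 6 libraries allow; 0.0938 after Benjamini-Hochberg adjustment over the 3 pairs of families). The difference was thus larger than its spread but did not pass 0.05 once adjusted.

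Alpha medians varied most, with -0.00705 and 0.0241 in the TDG KD, -0.00642 and -0.00175 in the siRNA controls, and 0.0426 and 0.00487 in WT. Gamma minus alpha averaged 0.00725 ± 0.00799 (SD, n = 6 libraries, positive in 5; exact p = 0.09375, adjusted 0.141). Beta minus alpha averaged -0.00754 ± 0.0132 (SD, n = 6 libraries, negative in 3 and equal in siRNA control 2; exact p = 0.3125). These 2 differences were within the spread between libraries. In siRNA control 2 the background sequence between the alpha and beta clusters had the value of both medians, -0.00175. Most alpha and beta windows thus shared a domain there, and this library does not set alpha against beta.

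Against the 22035 other gene windows, beta windows were lower in 6 of 6 libraries, by a mean of -0.00615 ± 0.00416 (SD, n = 6 libraries; exact p = 0.03125, adjusted 0.0938). The 492 other genes of chromosome 18 were themselves low, and against them the beta difference shrank to -0.00149 (exact p = 0.6875, n = 6). Gamma minus other genes was 0.00865 ± 0.00621 (SD, n = 6 libraries, positive in 5; exact p = 0.0625), and it was 0.0133 against the genes of chromosome 18 alone (exact p = 0.03125, n = 6, not adjusted). Alpha minus other genes was 0.00140 ± 0.00943 (SD, n = 6 libraries, positive in 3; exact p = 0.6875). Against the 127 other genes with at least 2000 coding bases in the first exon, gamma was 0.00328 higher (exact p = 0.28125, n = 6). Against the same genes beta differed by -0.0115 (exact p = 0.03125, n = 6, not adjusted) and alpha by -0.00397 (exact p = 0.4375, n = 6).

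**Figure D1:**
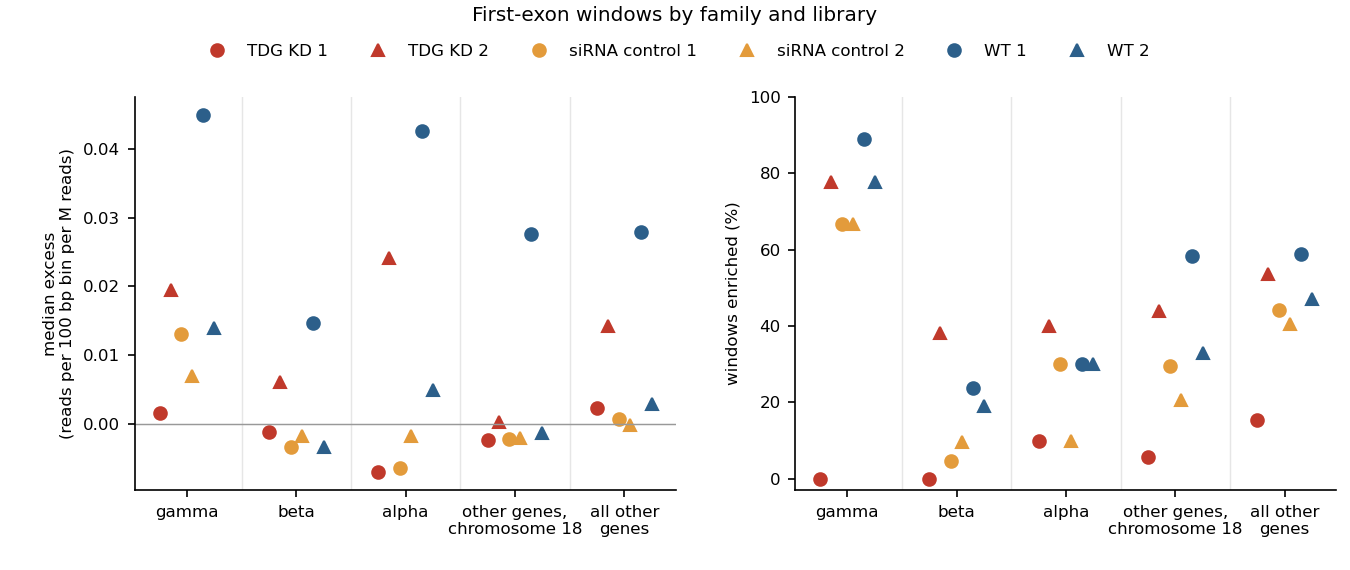
Median excess of the first-exon windows (left, reads per 100 bp bin per M reads) and share of windows enriched (right, %), 1 point a library, for the gamma (n = 9), beta (n = 21) and alpha (n = 10) exons, 492 other genes of chromosome 18 and all 22035 other genes. By median excess, gamma lies above beta in each library, and WT 1 is the highest library of each set.

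Over the 40 members, 0 were enriched in all 6 libraries, where 11.1% of all windows and 2.03% of the other genes of chromosome 18 were. A further 14 members were enriched in none (29% of all windows). The 14 were 9 of the 21 beta exons (Pcdhb1, Pcdhb3, Pcdhb4, Pcdhb5, Pcdhb8, Pcdhb9, Pcdhb18, Pcdhb19 and Pcdhb21) and 5 of the 10 alpha exons, whereas each of the 9 gamma exons measured was enriched in at least 1 library. Enriched in both replicates were 1 member in the TDG KD (14.7% of all windows), 5 in the siRNA control (34.1%) and 9 in WT (40.6%). These are 2.5%, 12.5% and 22.5% of the members, beside 4.67%, 16.1% and 27.8% of the other genes of chromosome 18. Of the 9 in WT, 6 were gamma, 1 was beta and 2 were alpha. Of the 5 in the siRNA control, 4 were gamma and 1 was alpha, and the 1 in the TDG KD was alpha. Without TDG KD 1 the TDG KD count was 19, the count of TDG KD 2 alone, and without TDG KD 2 it was 1. In TDG KD 1, 12 of the 40 members were unconfident.

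Within the gamma cluster the exons nearest the constant exons and the first exon of the cluster were highest. Pcdhgc5-209 (chr18:37979308-37984733), the last variable exon, which here runs on into the first constant exon, had an excess of 0.00856 and 0.0250 in the TDG KD libraries, 0.0143 and 0.00979 in the siRNA controls, and 0.0502 and 0.0328 in WT. Pcdhgc5-205, just before it, had 0.00856 and 0.0250 in the TDG KD, 0.0163 and 0.00979 in the siRNA controls, and 0.0558 and 0.0252 in WT. Both were enriched in 5 of 6 libraries, TDG KD 1 being unconfident, and had equal values in both TDG KD libraries and in siRNA control 2. Their mean percentile among all gene windows was 78.1 and 77.9, and that of the first gamma exon, Pcdhgc5-207, was 64.7 with enrichment in the same 5 libraries.

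The lowest gamma exons by mean percentile were Pcdhgc5-208 (38.0), Pcdhgc5-206 (46.6) and Pcdhgc5-204 (46.7). Pcdhgc5-206 (chr18:37885360-37887970) had 0.00152 and -0.00150 in the TDG KD, -0.000760 and -0.00114 in the siRNA controls, and 0.0321 and 0.000443 in WT, and only WT 1 called it enriched. Pcdhgc5-208 had -0.0114 and 0.0201 in the TDG KD, -0.0102 and 0.00690 in the siRNA controls, and 0.0449 and -0.00584 in WT. The replicates of each condition thus stood on opposite sides of enrichment for this exon.

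Among beta genes, Pcdhb12 stood highest, with a mean percentile of 62.6. Its excess was -0.00115 and 0.0299 in the TDG KD, 0.0164 and -0.00175 in the siRNA controls, and 0.0402 and 0.0193 in WT, and it was the only beta window enriched in 4 libraries and in both WT replicates. Pcdhb6 (55.4) and Pcdhb7 (49.9) followed. Pcdhb6 reached 0.0516 in TDG KD 2 and 0.0545 in WT 1 and was background in the other 4 libraries, and Pcdhb7 was enriched in WT 2 alone, at 0.0386.

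The lowest beta genes were the neighbors Pcdhb19 (mean percentile 16.7), Pcdhb21 (24.2) and Pcdhb22 (28.6) at the end of the cluster. Pcdhb19 (chr18:37656651-37663781), the longest first exon of all members, had -0.00901 and -0.0148 in the TDG KD, -0.00551 and -0.00459 in the siRNA controls, and 0.00311 and -0.00342 in WT. Pcdhb22, the last beta gene, had -0.00901 and -0.00819 in the TDG KD, -0.00551 and -0.00459 in the siRNA controls, and 0.0390 and 0.00490 in WT. Pcdhb1, the first gene of the cluster, was never enriched, and its excess lay between -0.00175 and 0.0222. Windows of Pcdhb21 and Pcdhb22 overlap each other.

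The 3 highest alpha exons were the second exon and the last 2 of the cluster, and the 3 lowest lay between them. Pcdha11-202 (chr18:37303623-37306184), the last variable exon before the constant exons, had 0.0175 and 0.0291 in the TDG KD, 0.0248 and -0.00175 in the siRNA controls, and 0.0572 and 0.0236 in WT. It was enriched in 5 of 6 libraries, siRNA control 2 being background, and was the single member enriched in both TDG KD replicates. Pcdha11-209, the second exon of the cluster, and Pcdha11-201, the last but one, had mean percentiles of 78.6 and 69.2, against 79.7 for Pcdha11-202. In siRNA control 2 Pcdha11-209 was the highest of the 40 members, at 0.0270.

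Pcdha11-205 (27.2), Pcdha3 (30.4) and Pcdha11-208 (33.1) had the lowest mean percentiles of the alpha family. Pcdha3 had -0.00705 and -0.00650 in the TDG KD, -0.00642 and -0.00175 in the siRNA controls, and 0.0244 and 0.000980 in WT. Pcdha11-204, the first exon of the cluster, had 0.00742 and 0.0221 in the TDG KD, -0.00401 and -0.00310 in the siRNA controls, and 0.0695 and -0.00735 in WT. It was thus the highest of the 40 members in WT 1, although 41.3% of its window was enriched there, and the lowest in WT 2.

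**Figure D2:**
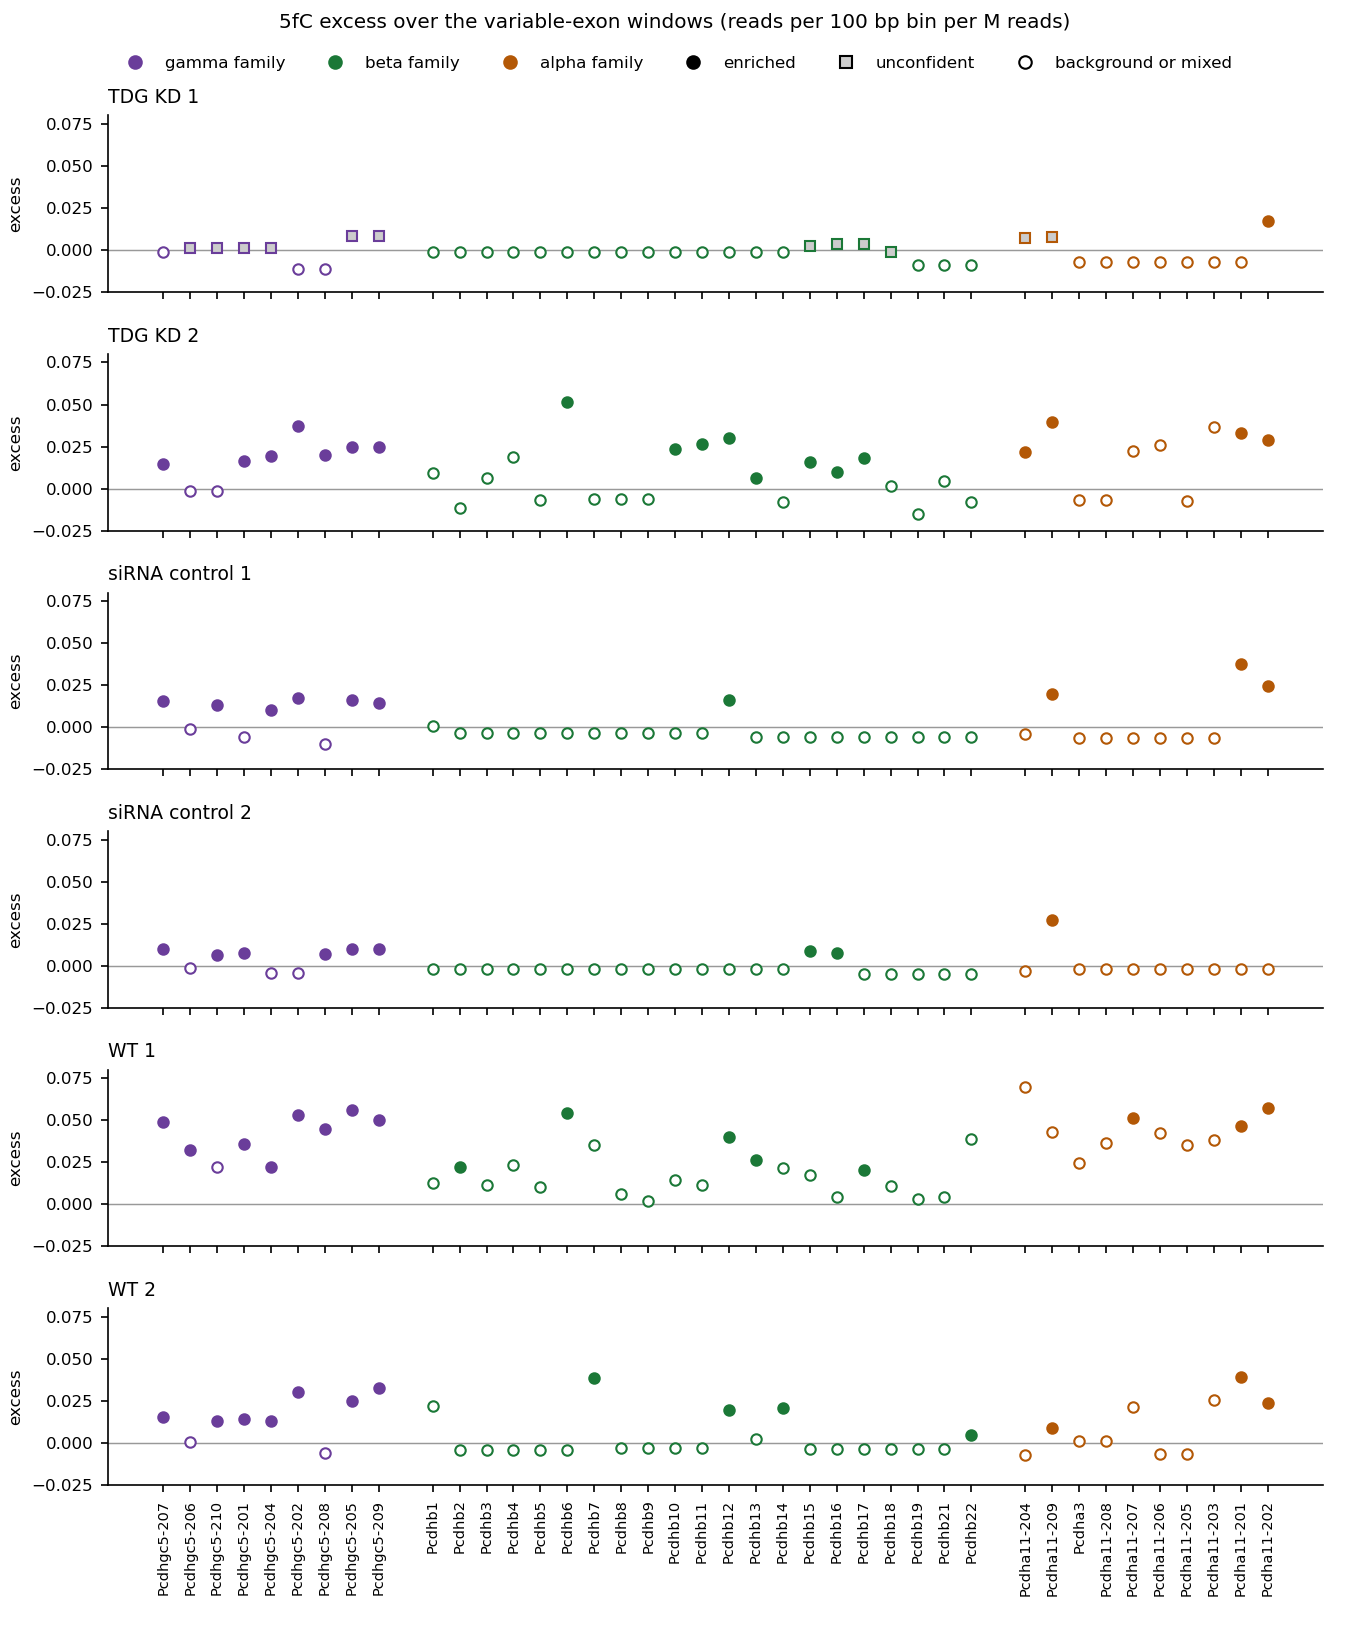
Excess of each of the 40 variable-exon windows (reads per 100 bp bin per M reads) in the 6 libraries, with members in genome order within gamma, beta and alpha; filled points are enriched, gray squares unconfident and open points background or mixed. Runs of equal points are members that share a domain, and in TDG KD 2 and WT the last gamma and alpha exons are enriched.

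Aligned at the start codon, enrichment of the beta and alpha exons was most frequent well inside the exon in WT and in TDG KD 2. This pattern was noticed in the data and is described with no test. In WT 1, the library with the narrowest domains, the segment from 1500 to 2000 bp after the start codon was enriched in 9 of 9 gamma, 20 of 21 beta and 10 of 10 alpha exons, whereas 70.7% of all 167 first exons with at least 2000 coding bases (the 40 members included) were enriched there. The exception was Pcdhb1, at an excess of -0.0155 in WT 1. The first 500 bp after the start codon were enriched in 6 gamma, 7 beta and 4 alpha exons (61.7% of the 167).

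Median excess of the alpha exons in WT 1 was -0.00954 in the first 500 bp and 0.116 between 1500 and 2000 bp, and that of the beta exons was -0.00667 and 0.0737. The gamma exons differed little between both segments, with 0.0590 and 0.0634. In the 127 other genes the medians were 0.0439 and 0.0414. In WT 1 the alpha and beta exons thus had their highest 5fC far from the start, and the gamma exons and the other genes had similar levels in both segments.

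In TDG KD 2 the segment from 1500 to 2000 bp was enriched in 7 gamma, 12 beta and 7 alpha exons (65.9% of the 167), and the first 500 bp in 6, 9 and 4 (59.3%). In WT 2 the counts were 7, 6 and 5 for the inner segment (52.1%) and 7, 3 and 2 for the first (46.7%). In TDG KD 1 they were 0, 0 and 1 in both segments (16.2% each). The siRNA controls had 6, 1 and 3 (46.1%) and 6, 2 and 1 (38.3%) in the inner segment, and 5, 2 and 2 (44.3%) and 6, 1 and 1 (37.1%) in the first.

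Position by position, the share of exons in an enriched domain in WT 1 was highest from 1400 to 2100 bp for gamma (100%) and beta (95.2%) and from 1200 to 1900 bp for alpha (100%). At the start codon it was 77.8% for gamma, 28.6% for beta and 30% for alpha. For the 127 other genes the highest share was 70.9%, from 500 to 700 bp, with 62.2% at the start codon.

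**Figure D3:**
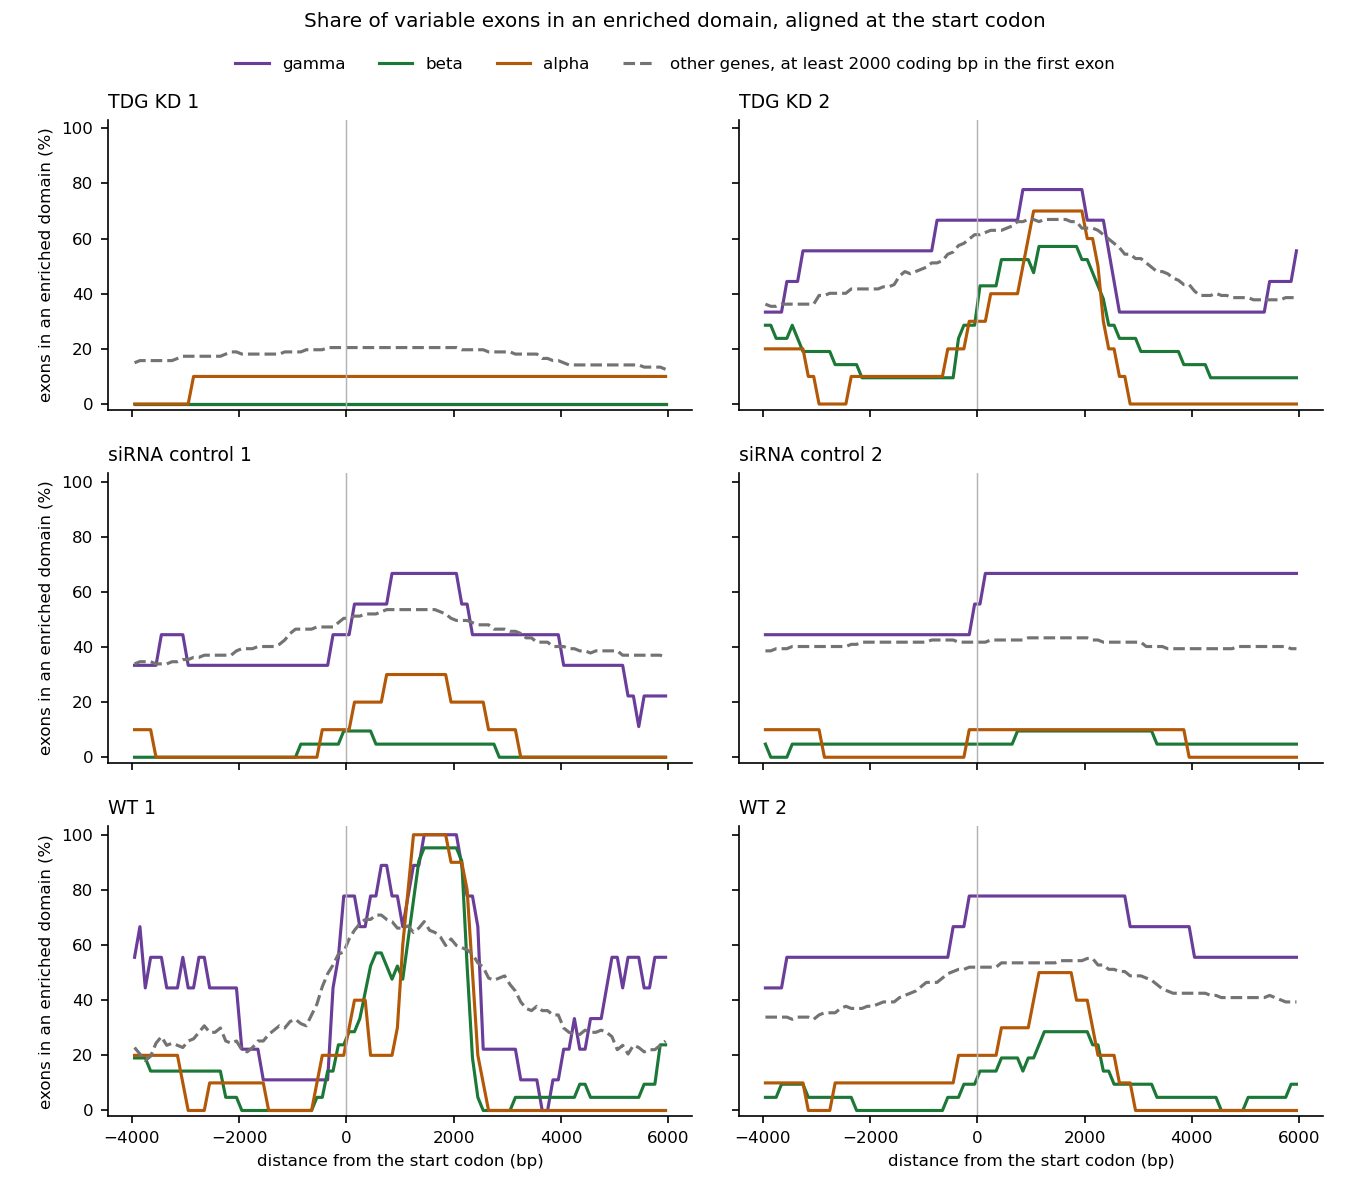
Share of exons in an enriched domain (%) against the distance from the start codon (bp), 1 panel a library, for gamma (n = 9), beta (n = 21), alpha (n = 10) and, dashed, 127 other genes with at least 2000 coding bases in the first exon. In WT 1 the 3 families reach 95.2 to 100% between 1200 and 2100 bp, and in TDG KD 1 the lines stay at 0 to 20.5%.

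CpG content differed between the families and along the exons. The median window held 3.30 CpGs per 100 bp in gamma, 2.01 in beta and 3.81 in alpha, against 3.02 in the other genes. Alpha exons had a pair of CpG-dense stretches, the first 500 bp with 5.8 per 100 bp, and 1000 to 2000 bp with 5.4 and 5.9 in its 2 segments. Beta exons had one, with 5.4 between 1500 and 2000 bp and 1.8 in the first 500 bp, and gamma exons had 5.6 in the first 500 bp and 3.2 between 1500 and 2000 bp.

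In WT 1 the position with the most enriched beta exons lay on their CpG-dense segment. For the alpha exons it lay on the inner dense stretch, while at most 40% of them were enriched at any position of the first 500 bp. For the gamma exons it lay from 1400 to 2100 bp, and not on their densest segment. That segment was the first 500 bp, with 5.6 CpGs per 100 bp, against 3.2 between 1500 and 2000 bp. Of all 40-base words in the first 500 bp of the alpha exons, a median of 66.1% occur once in mm9, against 78.1% between 1500 and 2000 bp. In the gamma exons it was 100% in both segments. Reads were 40 bases long and had to be uniquely placed, and the part of this in the result was not tested. Across the 40 members, excess in WT 1 went with CpG density (Spearman's rho = 0.69 across exons, which share one library and in part their sequence), and rho was 0.067 within the gamma, 0.50 within the beta and 0.14 within the alpha exons. In the other libraries rho across the 40 members lay between -0.086 and 0.28.

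**Figure D4:**
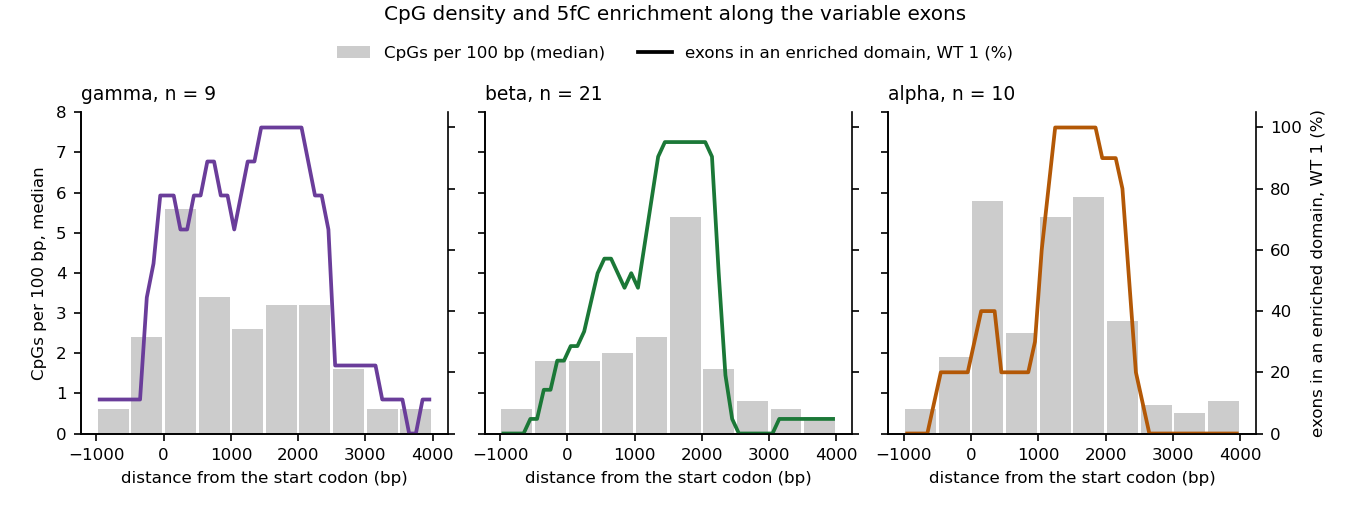
CpGs per 100 bp in segments of 500 bp (bars, median of the family, left axis) and share of exons in an enriched domain in WT 1 (line, %, right axis) against the distance from the start codon (bp). In beta the line peaks over the single tall bar of 5.4, and in alpha over the bars of 5.4 and 5.9, while the first tall one, 5.8, lies under a line of at most 40%. In gamma the line peaks away from the tallest bar, 5.6.

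Over their whole length, the alpha and beta clusters had less 5fC than both flanks of the locus combined, and the gamma cluster had the largest share of enriched sequence of the 3 in each library. Of the gamma cluster (167.5 kb) 4.07% and 39.9% lay in enriched domains in the TDG KD, 17.3% and 32.7% in the siRNA controls, and 38.3% and 38.8% in WT. In TDG KD 1 a further 43.6% of it was unconfident. Of the beta cluster (256.4 kb) it was 0% and 14.1% in the TDG KD, 1.66% and 2.65% in the siRNA controls, and 14.9% and 5.08% in WT. The alpha cluster (257.4 kb) had 3.89% and 10.3% in the TDG KD, 2.88% and 1.59% in the siRNA controls, and 13.9% and 6.41% in WT. The alpha and beta shares thus overlapped in every condition.

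Mean excess of the alpha cluster minus that of the 200 kb on either side of the locus was -0.00588 ± 0.00296 (SD, n = 6 libraries, negative in 6; exact sign-flip p = 0.03125, adjusted 0.0469 over the 3 clusters). Beta minus flanks was -0.00438 ± 0.00322 (SD, n = 6 libraries, negative in 6; exact p = 0.03125, adjusted 0.0469). Gamma minus flanks was 0.00239 ± 0.00384 (SD, n = 6 libraries, positive in 4; exact p = 0.1875). The flanks were unlike. The 200 kb after the gamma cluster, with Diap1 and Hdac3, were 44.5% to 52.9% enriched in 5 libraries and 1.14% in TDG KD 1, and those before the alpha cluster were 8.60% to 18.2% enriched. Against the flank before the alpha cluster alone, alpha (-0.00205, exact p = 0.09375, n = 6) and beta (-0.000550, exact p = 0.375, n = 6) did not pass. Gamma was 0.00622 above that flank in 6 of 6 libraries (exact p = 0.03125, not adjusted over the 3 clusters).

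The enriched sequence of the beta cluster was nearly all in the first-exon windows. With these taken out, 0% and 1.87% of the beta cluster was left enriched in the TDG KD, 0.169% and 0.264% in the siRNA controls, and 2.59% and 0% in WT. In the gamma cluster 5.16% and 32.1% of the remainder was enriched in the TDG KD, 7.35% and 24.2% in the siRNA controls, and 30.0% and 28.7% in WT. The gamma remainder also holds the variable exons that were not measured, so it cannot be set against the beta remainder. The constant exons, which encode the shared cytoplasmic end of the proteins, differed between both clusters that have them. The last gamma constant exon was enriched over its whole length in 5 libraries and over 53.0% in WT 1, and the last alpha constant exon had no enriched sequence in 5 libraries, 88.9% of it being unconfident in TDG KD 1, and 18.4% in WT 1.

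**Figure D5:**
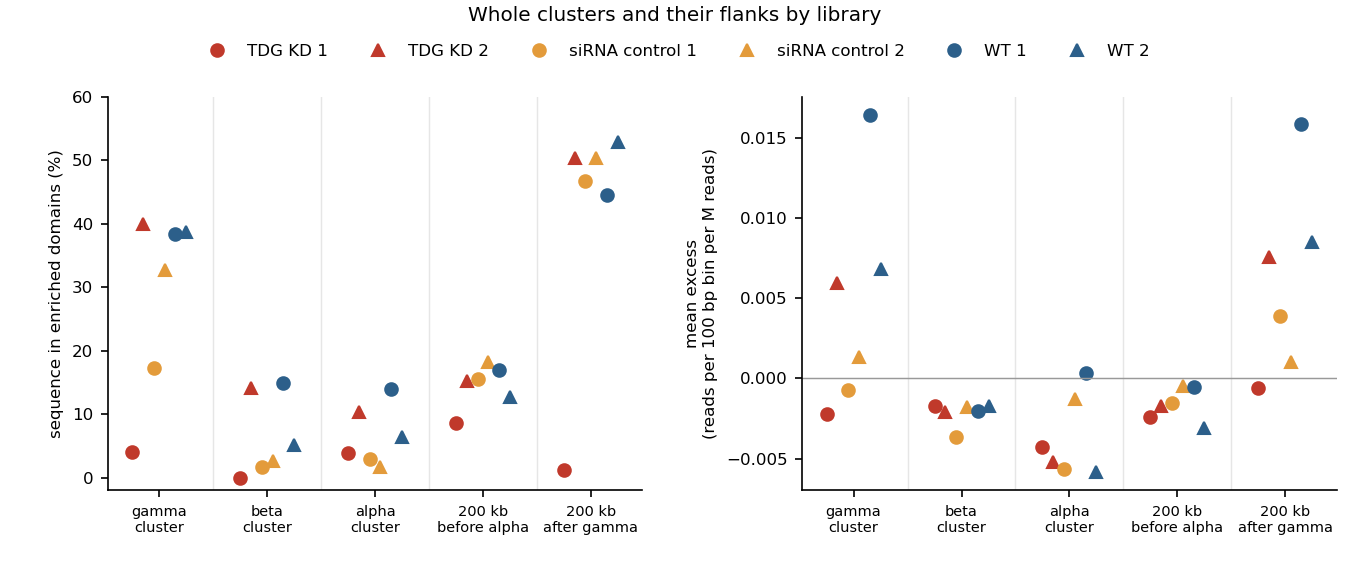
Share of sequence in enriched domains (left, %) and mean excess (right, reads per 100 bp bin per M reads) of the 3 clusters and of the 200 kb before the alpha and after the gamma cluster, 1 point a library. The gamma cluster reaches 39.9% enriched and the alpha and beta clusters at most 14.9%, and TDG KD 1 has the lowest enriched share in the gamma cluster and in both flanks.

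Loss of TDG was compared with the siRNA control to ask whether 5fC that TDG normally removes gathers at these exons relative to the genome. The paper reports from mass spectrometry that the overall level of the modified base rose in the TDG KD. It describes the pulldown signal as relative to the input and not as an absolute level. Excess also subtracts the mean of its own library, so a rise shared evenly by the genome cannot appear in it. The values below therefore cannot show whether the absolute level rose at the exons. With 2 libraries a condition an exact two-sided permutation test cannot go below p = 0.33. Alpha windows averaged 0.00851 ± 0.0220 in the TDG KD and -0.00409 ± 0.00330 in the siRNA control (SD, n = 2 each; exact p = 1). Beta windows averaged 0.00246 ± 0.00510 in the TDG KD and -0.00257 ± 0.00115 in the siRNA control (SD, n = 2 each; exact p = 0.33). Gamma windows averaged 0.0105 ± 0.0127 in the TDG KD and 0.00995 ± 0.00432 in the siRNA control (SD, n = 2 each; exact p = 1). No family differed by more than the replicates of the TDG KD did.

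The library names carry the prefixes BHAM and EAR, with 1 library of each siRNA condition in each. Both WT libraries carry BHAM, so siRNA control and WT also differ in prefix for 1 siRNA control library. TDG KD minus siRNA control within BHAM was -0.0115 for gamma, 0.00223 for beta and -0.000633 for alpha. Within EAR it was 0.0126 for gamma, 0.00782 for beta and 0.0258 for alpha. The sign was the same in both only for beta.

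Both TDG KD libraries were above both siRNA controls in 9 of 40 members (10.5% of all windows), 8 of them beta and 1 alpha, and below both in 6 (12.6% of all windows), 3 of them alpha, 2 beta and 1 gamma. The 9 had no enriched sequence in TDG KD 1 or in either siRNA control, and 6 of them were enriched in TDG KD 2. In TDG KD 1, 7 of the 9 took the value of a domain shared with another member.

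The largest of these differences was that of Pcdhb6, which had -0.00115 and 0.0516 in the TDG KD, against -0.00338 and -0.00175 in the siRNA controls. Pcdha11-204 had 0.00742 and 0.0221 in the TDG KD, against -0.00401 and -0.00310 in the siRNA controls, and Pcdhb17 had 0.00352 and 0.0182, against -0.00551 and -0.00459. Next came Pcdhb11, with a TDG KD minus siRNA control difference of 0.0153, and Pcdhb10, with 0.0139. Without TDG KD 2 these differences rest on TDG KD 1 alone, where none of the 5 was enriched.

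In the other direction Pcdhgc5-210 was the one member with enrichment in both siRNA controls that neither TDG KD library showed. Its excess was 0.00152 and -0.00150 in the TDG KD, against 0.0130 and 0.00629 in the siRNA controls. All of its window was unconfident in TDG KD 1, so the missing enrichment rests on the other TDG KD library. The other 5, Pcdhb19, Pcdhb22, Pcdha11-205, Pcdha11-208 and Pcdha3, had no enriched sequence in any of the 4 libraries, and their differences lay between -0.00686 and -0.00269.

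Relative to WT, siRNA control windows were lower in both libraries for 22 of 40 members, 7 gamma, 10 beta and 5 alpha, where 42.4% of all windows were, and higher for 0 (13.8% of all windows). Gamma averaged 0.00995 ± 0.00432 in the siRNA control and 0.0295 ± 0.0219 in WT, and alpha -0.00409 ± 0.00330 in the siRNA control and 0.0237 ± 0.0267 in WT (SD, n = 2 each; exact p = 0.33 for both, the smallest possible). Beta averaged -0.00257 ± 0.00115 in the siRNA control and 0.00563 ± 0.0128 in WT (SD, n = 2 each; exact p = 1). WT 1 was the highest of these 4 libraries in each family, and without WT 1 the beta difference changed sign, to 0.000848.

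Genes that act on or with the clusters were compared as background to the members. Of the 15 regulators, among them Ctcf, the cohesin genes, the cohesin loader gene Nipbl and the DNA methyltransferase Dnmt3b, 1 was enriched in both TDG KD libraries, 2 in both siRNA controls and 3 in both WT replicates. Ctcf was enriched in 5 of 6 libraries, WT 2 being the exception, with 0.0175 and 0.0292 in the TDG KD, 0.00887 and 0.0181 in the siRNA controls, and 0.0243 and -0.00640 in WT. It was not typical of the 15 regulators, of which 8 (53.3%) were enriched in at least 1 library, beside 71.0% of the other genes. Of 8 genes for partners of the proteins, such as the kinases Ptk2, Ptk2b and Fyn and the protease Adam10, 0, 2 and 2 were enriched in both libraries of the TDG KD, the siRNA control and WT. Among the 12 protocadherins outside the clusters these counts were 2, 4 and 6, and Pcdh8 had the highest excess of them in WT 1, at 0.0801. Of the 40 genes of the Hox clusters, which are clustered developmental genes as well, 22, 16 and 21 were enriched in both libraries of the TDG KD, the siRNA control and WT. The counts of the 40 protocadherin exons were 1, 5 and 9, and the shares of all gene windows were 14.7%, 34.1% and 40.6%. For the other genes of chromosome 18 the shares were lower, 4.67%, 16.1% and 27.8%. In TDG KD 1, 12 of these exons and 7 of the Hox genes were unconfident.

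Between the beta and gamma clusters lie Slc25a2, a mitochondrial ornithine carrier gene, and Taf7, a gene for a subunit of the general transcription factor TFIID. Taf7 was enriched in 3 of 6 libraries, with -0.00901 and 0.00996 in the TDG KD, 0.00336 and -0.00459 in the siRNA controls, and 0.0147 and 0.00791 in WT. Slc25a2 was enriched in none, and its excess was above 0 in WT 1 only, at 0.0310.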

How the data were processed

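The authors aligned single-end reads of 40 cycles to mm9 (their notes list BWA 0.6.1), kept a mapping quality of at least 15 and called domains in each library with rseg, mode 2, using the input as control. The deposited score of a domain is in reads per 100 bp bin, pulldown less input, and is not scaled for depth. It was therefore divided by the uniquely placed reads of the pulldown, which the supplement lists (20.4 to 45.9 M, input 26.5 M). The input reads within the score were divided by the pulldown depth as well. The input thus weighed most in TDG KD 1, the shallowest library, and least in WT 1, the deepest. The part of this in level differences between libraries and conditions was not tested. A second deposited score was not used. Reads per region were not used, so precision rests on 2 replicates, taken to be separate cultures.

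Window means, weighted by length, and exact tests were computed with NumPy 2.4.6, SciPy 1.17.1 and numba 0.67.0 under Python 3.11.15 and tested on simulated data; figures used Matplotlib 3.10.9. Under 50% coverage left out 300 other genes. Families and clusters were compared over the 6 libraries by sign-flip tests, and conditions by permutation tests, with Benjamini-Hochberg adjustment over 3 comparisons and a threshold of 0.05. One first exon per gene had been planned, but release M1 merges alpha and gamma genes, so the variable exons that it holds were used, and C-type genes were not analysed by name here. The alternatives varied the flank, the call, the scale, the set compared and the libraries.

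Members named were the first and last of each cluster, the 3 highest and 3 lowest by mean percentile in each family, those enriched in 0 or 6 libraries (up to 10), up to 5 per direction of the TDG KD comparison, and Slc25a2 and Taf7. Other single values were chosen after they were seen. Members and lists were chosen with earlier results of these data known.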

Additional observations from a re-analysis of the deposited data

Results flagged for a closer look

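The difference between TDG KD and siRNA control took opposite signs in the pairs of libraries that share a name prefix. For the gamma exons it was -0.0115 within BHAM and 0.0126 within EAR, in excess per M reads. For the alpha exons it was -0.000633 within BHAM and 0.0258 within EAR. Each value is 1 library minus 1 library, and the difference between the prefixes was not tested.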

How the results depend on the processing

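The precision of all values rests on 2 libraries a condition, on 1 shared input, and on domains often wider than the exons, so that several members share a value. The following are excess per M reads unless stated, and the causes were not tested. Passing means an exact p below 0.05 that is not adjusted over the 3 comparisons.

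Gamma minus alpha passed 0.05 with one first exon per gene (0.0106, exact p = 0.03125, n = 6), where gamma is Pcdhgc5-209 alone, its highest member, and alpha 2 exons. This choice was added after seeing the data, as were the comparisons with chromosome 18, with long coding first exons and with single flanks. Gamma minus other genes passed with one exon per gene (0.0155) and against chromosome 18 (0.0133), and beta minus other genes no longer passed against chromosome 18 (-0.00149). Alpha minus other genes was negative with 1000 bp on either side (-0.000667), as a percentile (-6.79 points) and against long coding first exons (-0.00397). As percentiles, gamma TDG KD minus siRNA control was -13.4 points, and siRNA control minus WT was 3.47 for beta and 0.314 for gamma.

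Gamma cluster minus flanks was -0.000491 with flanks of 500 kb, -0.000425 without the first-exon windows and -0.00144 against the flank after the gamma cluster, and 0.00622 against the flank before the alpha cluster. Against the flank before the alpha cluster alone, alpha (-0.00205) and beta (-0.000550) no longer passed. With the name prefix as a replicate block, TDG KD minus siRNA control within BHAM was -0.000633 for alpha and -0.0115 for gamma, and the mean over both prefixes was 0.0126 for alpha, 0.00503 for beta and 0.000548 for gamma, as without the block. The labels carry no replicate numbers, so the prefix is the only pairing.

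Members enriched in both replicates numbered 0 in the TDG KD, 1 in the siRNA control and 0 in WT when the whole window had to be enriched, and 19, 14 and 21 when either replicate sufficed, that is 47.5%, 35% and 52.5% of members beside 54.3%, 50.5% and 65.3% of the other genes. With at least 1 bp enriched the WT count was 19.

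Leaving out each library in turn gave 0.00482 to 0.00962 for gamma minus alpha, 0.0117 to 0.0172 for gamma minus beta, and -0.0102 to -0.00347 for beta minus alpha. Against other genes it gave 0.00697 to 0.0105 for gamma, -0.00706 to -0.00473 for beta and -0.00126 to 0.00355 for alpha, which was negative without WT 1 or without TDG KD 2 (-0.000286). Against the flanks it gave 0.00111 to 0.00324 for gamma, -0.00522 to -0.00332 for beta and -0.00675 to -0.00534 for alpha. With 5 libraries the exact p cannot go below 0.0625, so no such value could pass. TDG KD minus siRNA control ranged from -0.00843 to 0.00953 for gamma, 0.00142 to 0.00864 for beta and -0.00297 to 0.0282 for alpha, with negative values for alpha and gamma without TDG KD 2 and for gamma also without siRNA control 2 (-0.00250). siRNA control minus WT ranged from -0.0350 to -0.00400 for gamma, -0.0172 to 0.000848 for beta and -0.0467 to -0.00896 for alpha. The members enriched in the library left were 1 to 19 in the TDG KD, 9 to 10 in the siRNA control and 14 to 16 in WT. Apart from those given here, the alternatives kept the direction and the side of the threshold, 123 of them beside 49 that left out a library.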
